A study of Mus musculus with 8 samples.

Results

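The genes described here are the Wnt ligands of the mouse, their receptors and secreted antagonists, the R-spondins and their receptors, and the feedback inhibitors and transcription factors of the pathway that the expression array names. They were taken by gene name from the array's annotation, and each gene was read from the 1 probe that was brightest over all arrays, a choice that does not look at the difference between conditions. This gave 58 genes out of 36406 gene names, with 73 of the 55681 probes. RNA of E14Tg2A.4 mouse embryonic stem (ES) cells, an established line, was hybridized to Agilent 1-colour arrays, 4 from untreated cultures and 4 from cultures treated with retinoic acid (RA). The treated cells received all-trans RA at 1 µM for 72 h in medium lacking leukemia inhibitory factor, the cytokine that keeps ES cells undifferentiated, so that RA and the change of medium cannot be told apart. The cultures are called biological replicates in the methods and come from a single cell line.

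Wnt proteins are secreted, lipid-modified signals that bind frizzled receptors together with the co-receptors Lrp5 and Lrp6. In the canonical branch this binding stops the destruction of β-catenin, which then enters the nucleus and acts with TCF/LEF factors on target genes, among them inhibitors that dampen the signal. Secreted antagonists capture the ligand or the co-receptor, whereas R-spondins, read by Lgr receptors, keep frizzleds on the cell surface. In the embryo the pathway patterns the body axis, and in ES cells it favours self-renewal.

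A level is given below as the log2 signal of a probe relative to the 75th percentile of its array, so that 0 is a bright probe and values near -7 are at the bottom of the scale. It compares arrays for 1 probe and never 1 gene with another. A gene was called where limma's adjusted p (Benjamini-Hochberg over all probes) was under 0.05 and the change was over 1.5-fold. Between 56.7% and 62.7% of the spots of an array were well above background, and replicates correlated at 0.979 to 0.994. All 8 ES cell markers measured fell with RA, their summed log2 level going from between 8.81 and 9.29 on the untreated arrays to between 5.51 and 6.90. All 8 markers of the RA response rose, from 3.01 to 3.77 to between 6.82 and 7.83. All 7 primitive endoderm markers rose too, from 0.48 to 1.31 to between 4.51 and 5.25, and so did 6 of 7 fibroblast markers, from 0.08 to 0.88 to between 4.94 and 5.62, of which *Postn* and *Lum* were not well above background on any untreated array. Of 6 neural markers *Nes* rose and *Tubb3* fell (summed levels 2.60 to 3.27 and 3.38 to 3.56), and of 7 mesoderm markers *Tbx5* rose, *Mesp1* fell and *Mixl1* was called lower without being well above background on any array (1.18 to 1.47 and 1.03 to 1.84). The part of these cell type markers in the results below was not tested. In bulk RNA of this kind fewer cells of a type and less RNA per cell cannot be told apart.

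After RA treatment more of the 58 genes were called higher than lower. Of them 28 were called higher, 7 lower, and 23 were not called. Over all 18913 genes with a RefSeq name, 19.1% were called higher and 23.1% lower, and over all probes 12.9% and 21.6%. The 4 RA arrays lay above all 4 untreated arrays for 27 of the 58 genes and below them for 7, which compares with 21.2% and 26.8% of the RefSeq-named genes. The median log2 fold change was 0.66 over the 58 genes (0.43 with the 9 genes that were dim throughout a condition set to their bound), beside -0.25 over the RefSeq-named genes, of which the 5th and 95th percentiles were -2.23 and 2.40. Quantile normalization moves that median of all genes to 0.01 and turns the balance of their calls, with 20.8% higher and 18.2% lower, so the changes are relative to the chosen scale. It called 27 of the 58 genes higher and 6 lower. Normexp background correction, which here adds an offset of 50 to every signal, gave smaller changes for dim genes, and its value is given below for each called gene of the 58 where it differs by over 1.5-fold, except *Dkk4*, for which no size is given. Of the 58 genes, 41 were well above background on all 8 arrays.

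**Figure D1:**
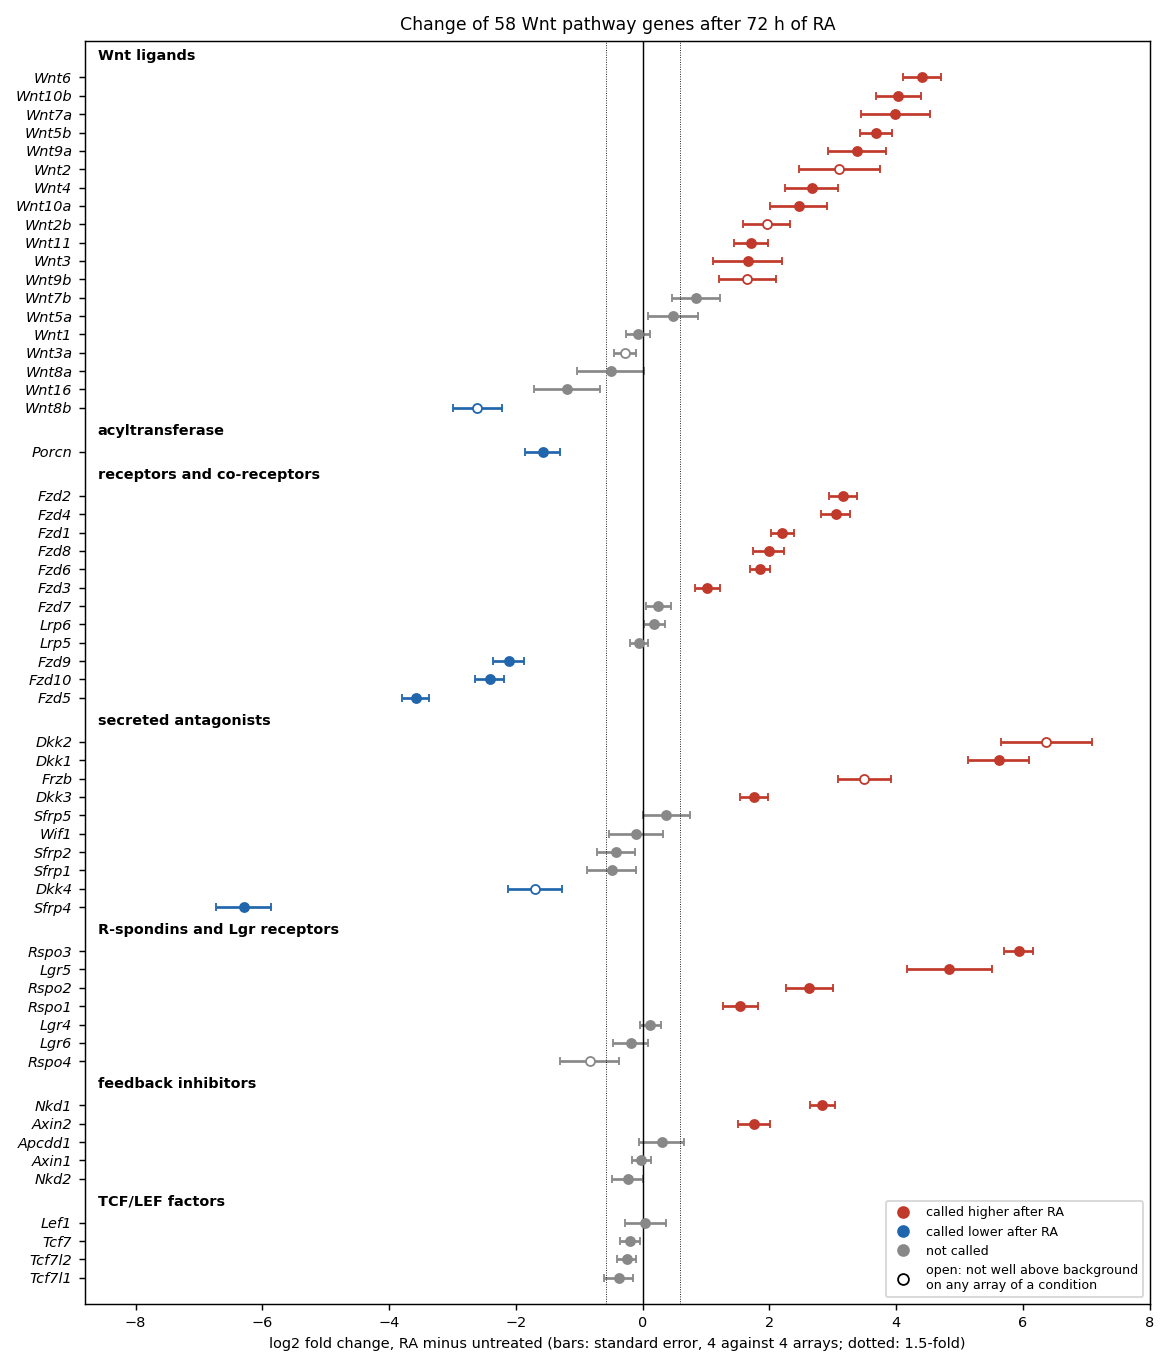
Log2 fold change of each of the 58 genes, RA minus untreated (horizontal axis; bars are standard errors, 4 against 4 arrays), grouped by role and coloured by call. Among filled symbols rises reach 5.93 for *Rspo3* and falls reach -6.30 for *Sfrp4*, and the 4 TCF/LEF factors lie around 0. Open symbols are fitted values of genes that were not well above background on any array of a condition and are not sizes of change.

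The brightest probe of *Fzd2* and the dimmer of the probes of *Fzd7* were the most alike pair among the probes of different members, with 42 of 50 aligned bases identical (the next pair had 30 of 60). The *Fzd2* probe lies at chr11:102467613-102467672 and the *Fzd7* probe at chr1:59541367-59541426 (mm9, positions from the scanner files), and capitals mark the identical aligned bases. They are shown because the probes of *Fzd7* gave different calls.
Fzd2: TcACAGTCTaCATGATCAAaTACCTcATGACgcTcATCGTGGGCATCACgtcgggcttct
Fzd7: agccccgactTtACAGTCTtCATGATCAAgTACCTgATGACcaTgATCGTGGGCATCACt

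The upstream sequences of members were searched for the core letters bound by TCF/LEF factors, CTTTGAT or CTTTGAA on either strand, since members of the pathway are known to include its own targets. RefSeq promoter windows (GRCm38.p6), from 250 bases before to 50 bases after a start, were at hand for 38 of the 58 genes. A core was found for 3 of the 38, a share near the 9.88% of all 27025 genes with a window that held one. These were *Dkk1*, *Wnt5b* and *Wnt11*. All 3 rose with RA, as did 19 of the 38 genes with a window, and nothing about the core is read from this. Their 250 upstream bases are shown in the direction of the gene with the core in capitals. They lie at chr19:30549497-30549746 on the minus strand, chr6:119449387-119449636 on the minus strand and chr7:98834862-98835111 on the plus strand, and the cores start 117, 71 and 51 bases before the gene's start. *Wnt5b* and *Wnt11* have further starts in the table, whose windows held no core. The *Wnt11* core is on the opposite strand and so reads ATCAAAG.
Dkk1: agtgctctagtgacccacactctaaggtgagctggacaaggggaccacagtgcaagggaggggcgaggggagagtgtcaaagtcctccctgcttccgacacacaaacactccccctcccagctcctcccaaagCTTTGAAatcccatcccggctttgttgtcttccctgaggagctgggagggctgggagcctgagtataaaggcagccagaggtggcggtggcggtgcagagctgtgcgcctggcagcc
Wnt5b: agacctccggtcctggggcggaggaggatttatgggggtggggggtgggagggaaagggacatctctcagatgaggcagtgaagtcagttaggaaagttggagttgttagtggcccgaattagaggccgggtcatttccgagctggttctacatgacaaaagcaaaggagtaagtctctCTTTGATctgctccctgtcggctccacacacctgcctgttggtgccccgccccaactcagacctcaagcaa
Wnt11: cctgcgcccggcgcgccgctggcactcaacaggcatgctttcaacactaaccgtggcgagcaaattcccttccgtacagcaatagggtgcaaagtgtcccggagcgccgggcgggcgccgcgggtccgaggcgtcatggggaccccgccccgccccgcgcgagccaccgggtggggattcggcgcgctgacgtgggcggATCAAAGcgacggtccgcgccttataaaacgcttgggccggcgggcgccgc
A pair of AGGTCA sites, the letters of RA receptor elements, with 5 or 2 bases between the copies was found in 0 of the 38, beside 0.0111% and 0.0074% of all genes. A match of letters is no evidence of binding, and a window without one says nothing about the factor.

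Of 19 Wnt ligands 12 were called higher, 1 lower and 6 were not called, with a median log2 fold change of 1.71 (1.17 with the 5 dim ligands at their bound).

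*Wnt6*, a ligand of early epithelia and extraembryonic endoderm, had levels of -0.38, -0.41, 0.06 and -1.30 on untreated arrays 1 to 4 and of 4.20, 3.77, 3.53 and 4.11 on RA arrays 1 to 4. Every RA array was far above every untreated one, and the array of untreated culture 4 was the lowest. The level rose 21.2-fold (log2 4.41 ± 0.29 SE, limma adjusted p = 1.16e-05). *Wnt10a* lies 19.2 kb away on chromosome 1 (distance between probe starts, mm9) and had levels of -2.50, -2.57, -1.71 and -3.01 without RA and of 0.53, 1.02, -0.78 and -0.71 with it. Here the RA arrays fell apart into a higher pair, 1 and 2, and a lower pair, 3 and 4, both above the untreated range. The rise was 5.51-fold (log2 2.46 ± 0.45, limma adjusted p = 0.00249), and slide 1 alone, with 2 arrays of each condition, did not give the call (adjusted p = 0.0516).

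*Wnt5b*, which signals mainly outside the β-catenin branch, read -1.72, -1.64, -2.60 and -1.80 in untreated cells and 1.41, 1.57, 2.00 and 1.98 after RA. The conditions were well apart, with untreated culture 3 below its group. It rose 12.8-fold (log2 3.68 ± 0.25, limma adjusted p = 1.28e-05). For *Wnt9a*, known from joint formation, the untreated levels were -2.82, -2.80, -0.80 and -2.88 and the RA levels were 0.91, 0.66, 1.26 and 1.38. Untreated culture 3 lay nearest to the RA arrays without reaching them, and the rise was 10.4-fold (log2 3.38 ± 0.46, limma adjusted p = 0.000461). Its neighbour *Wnt3a*, a canonical ligand of the primitive streak whose probe starts 85.4 kb away on chromosome 11, was not well above background on any of the 8 arrays.

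Several ligands were at or near background in untreated cells. *Wnt10b*, a canonical ligand, had levels of -5.23, -6.43, -4.60 and -5.18 without RA, of which 1 was well above background, and of -1.09, -1.23, -1.33 and -1.66 with RA. The RA arrays lay close together and high, and the change was 16.4-fold (log2 4.03 ± 0.36, limma adjusted p = 4.42e-05). It was 14.2-fold with each untreated array below background set to the lowest signal well above it, and the log2 change was 2.07 with normexp. *Wnt1*, 22.0 kb from it on chromosome 15, was well above background on all arrays at mean levels of -1.25 and -1.33 and was not called (log2 -0.08, limma adjusted p = 0.745). *Wnt7a*, a ligand of the nervous system and limb, had levels of -4.62, -3.40, -6.05 and -5.87 in untreated cells, 2 of them well above background, and of -0.50, -0.89, -1.38 and -1.22 after RA. The untreated arrays were widely spread and all lower, and the rise was 15.9-fold (log2 3.99 ± 0.55, limma adjusted p = 0.000511), 13.3-fold with the dim arrays set to that lowest signal and 2.35 on the log2 scale with normexp. *Wnt4*, known for its role in kidney and gonad, read -5.29, -3.58, -3.51 and -4.12 against -1.02, -1.03, -1.81 and -1.98. No untreated array reached the RA range, and the rise was 6.34-fold (log2 2.67 ± 0.42, limma adjusted p = 0.00104, log2 1.67 with normexp).

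Of *Wnt2*, *Wnt2b* and *Wnt9b* no untreated array was well above background, so that their rises are bounds. *Wnt2* had levels of -7.45, -7.84, -7.76 and -7.39 without RA and of -3.14, -6.46, -4.89 and -3.57 with it, 3 of these well above background. All 4 RA arrays were higher but RA culture 2 only slightly, and the level was at least 1.90-fold higher (limma adjusted p = 0.00468). With the arrays of slide 2 alone the call was lost (adjusted p = 0.0614), and normexp gave a fitted log2 change of 0.70. *Wnt9b* read -6.28, -6.10, -5.32 and -5.60 against -3.03, -3.85, -5.29 and -4.52, all 4 RA arrays being well above background. RA culture 3 and untreated culture 3 nearly met, and the level was at least 2.25-fold higher (limma adjusted p = 0.0192). It lost its call under 6 alternatives, among them each slide alone and a test against 1.5-fold, with log2 values down to 0.38 (normexp) and adjusted p up to 0.160 (slide 2). The normexp value and that of 0.58 in the authors' values are smaller than its bound. *Wnt2b* was well above background on 2 RA arrays, at least 1.30-fold higher (limma adjusted p = 0.00278). It lost its call under 4 alternatives, namely slide 1 alone and those with normexp or the authors' values, with a log2 value down to 0.19 and adjusted p up to 0.244 (both with normexp). That log2 value is smaller than its bound.

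*Wnt11*, a ligand of cell movements at gastrulation and one of the 3 with a TCF/LEF core upstream, rose from a mean level of -3.40 ± 0.37 (SD, n = 4) to -1.69 ± 0.45, which is 3.28-fold (limma adjusted p = 0.00102). *Wnt3*, needed for the primitive streak, read -4.20, -3.17, -1.75 and -4.23 without RA and -1.03, -1.44, -2.22 and -2.04 with it. It was the only called gene whose conditions overlapped, untreated culture 3 lying above RA cultures 3 and 4. The difference of 1.66 on the log2 scale had a limma adjusted p of 0.0413, and of 0.0614 with the replicate number as a block. Leaving out any 1 of the cultures except number 3 of either condition also ended the call, with adjusted p up to 0.108, as did quantile normalization and slide 1 alone (adjusted p = 0.0511 and 0.311) and a test against 1.5-fold (adjusted p = 0.184). The log2 difference was 1.03 with normexp.

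*Wnt8b*, a ligand of the early forebrain, was the ligand that fell. Its levels were -4.02, -3.86, -2.36 and -4.27 in untreated cells, all well above background, and -5.96, -6.42, -6.44 and -6.13 after RA, none of them well above background. No array of the 2 conditions overlapped, and the level was at least 4.20-fold lower (limma adjusted p = 0.000786). Normexp gave a log2 change of -0.92 and the authors' values gave -0.68, both smaller than that bound. The ligands not called were *Wnt5a* (log2 0.48), *Wnt7b* (0.84), *Wnt8a* (-0.51) and *Wnt16* (-1.19), beside *Wnt1* and *Wnt3a*. *Wnt16* had limma adjusted p = 0.106, and 0.0212 with the replicate block. *Porcn*, the acyltransferase that attaches the lipid to Wnt proteins, had levels of 2.03, 3.08, 1.66 and 2.24 without RA and of 0.63, 0.80, 0.66 and 0.61 with it. All RA arrays were lower and close together, and the level fell by 1.58 on the log2 scale (SE 0.28, limma adjusted p = 0.00199).

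**Figure D2:**
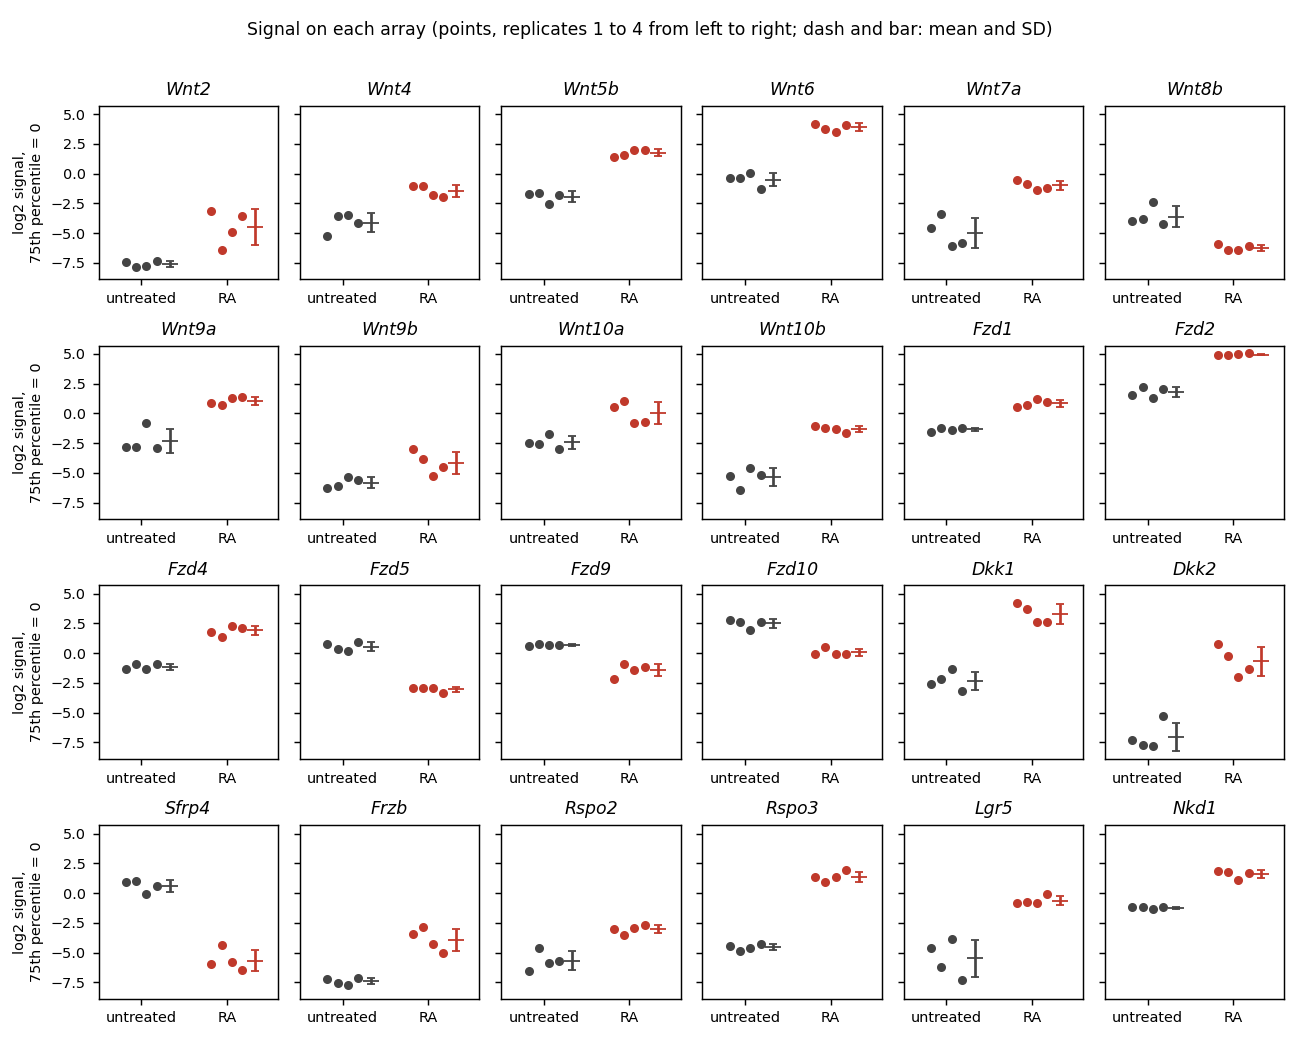
Log2 signal relative to the array's 75th percentile (vertical axis) on each of the 8 arrays for the 24 genes that were called with a change of at least 2 on the log2 scale and no overlap, or that were well above background on all RA arrays and on no untreated array. Points are cultures 1 to 4 of each condition, and the dash with its bar is the mean with the SD. RA arrays 1 and 2 both lie above RA arrays 3 and 4 for 9 of these genes, among them *Dkk1*, *Dkk2* and *Wnt10a*, and below them for 6, among them *Fzd1* and *Wnt5b*. This split does not follow the slides, as RA arrays 1 and 4 were on slide 1 and RA arrays 2 and 3 on slide 2. The share over all genes was not taken, so nothing about these genes is read from the split.

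The frizzled receptors changed in both directions, while their co-receptors were not called. Of 10 frizzleds 6 rose, 3 fell and 1 was not called, all of them well above background on all 8 arrays. Over all RefSeq-named genes 19.1% were called higher and 23.1% lower, beside 60% and 30% of the frizzleds. Nothing is read from the falls as a group. *Fzd2* read 1.56, 2.23, 1.27 and 2.08 in untreated cells and 4.88, 4.90, 4.97 and 5.04 with RA. The RA arrays were nearly equal and all higher, a rise of 8.96-fold (log2 3.16 ± 0.22, limma adjusted p = 1.43e-05). A further *Fzd2* probe, not well above background without RA, was at least 13.0-fold higher (limma adjusted p = 2.21e-06), and the mean of both probes gave a log2 change of 4.05.

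*Fzd4*, also the receptor of Norrin, had levels of -1.33, -0.88, -1.36 and -0.93 against 1.83, 1.40, 2.31 and 2.15. The conditions were clearly apart, and the rise was 8.25-fold (log2 3.05 ± 0.23, limma adjusted p = 2.06e-05). *Fzd1* read -1.56, -1.26, -1.39 and -1.20 without RA and 0.53, 0.69, 1.24 and 0.94 with it. Again all RA arrays were higher, by 4.60-fold (log2 2.20 ± 0.18, limma adjusted p = 3.43e-05). *Fzd8*, *Fzd6* and *Fzd3*, both of the latter known from planar cell polarity, rose 3.97-fold, 3.62-fold and 2.03-fold (limma adjusted p = 0.000256, 3.95e-05 and 0.00293). *Fzd3* was not called on either slide alone (adjusted p = 0.0920 and 0.0851) or in a test against 1.5-fold (adjusted p = 0.120).

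Among the frizzleds that fell, *Fzd5* had levels of 0.80, 0.34, 0.16 and 0.92 in untreated cells and of -2.96, -2.92, -2.89 and -3.34 after RA. The RA arrays were all far lower, and the log2 fold change was -3.58 (SE 0.21, limma adjusted p = 6.42e-06), -2.89 in the authors' values and -2.76 with its probes averaged. *Fzd10* read 2.81, 2.66, 1.98 and 2.60 against -0.07, 0.54, -0.03 and -0.05. RA culture 2 was the highest of its condition and still below the untreated range, and the level was 5.32-fold lower (log2 -2.41 ± 0.23, limma adjusted p = 6.29e-05). For *Fzd9* the untreated levels of 0.57, 0.80, 0.70 and 0.71 were nearly equal, and those after RA were -2.13, -0.94, -1.43 and -1.19. The groups did not overlap, and the level was 4.33-fold lower (log2 -2.12 ± 0.25, limma adjusted p = 0.000200).

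*Fzd7* was not called by its brightest probe, with mean levels of 2.26 and 2.51 (log2 0.24 ± 0.20, limma adjusted p = 0.331). Its dimmer probe, whose sequence resembles that of *Fzd2* as shown above, gave a rise of 1.39 (SE 0.25, limma adjusted p = 0.00214). Whether RNA of *Fzd2*, whose level rose, binds to this *Fzd7* probe was not tested. The co-receptors *Lrp5* (log2 -0.06 ± 0.14) and *Lrp6* (0.18 ± 0.16) were not called.

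Of the 10 secreted antagonists 4 rose, 2 fell and 4 were not called, and the largest fall of the 58 genes was among them. The 20% that fell is near the 23.1% of all RefSeq-named genes called lower, while 19.1% of those were called higher. *Dkk1*, which binds Lrp5 and Lrp6 and blocks the canonical branch, read -2.60, -2.18, -1.35 and -3.19 in untreated cells and 4.21, 3.73, 2.59 and 2.62 after RA. The RA arrays were all much higher, with cultures 1 and 2 above cultures 3 and 4. The rise was 49.1-fold (log2 5.62 ± 0.48, limma adjusted p = 3.72e-05). *Dkk2*, related to it, had levels of -7.33, -7.72, -7.81 and -5.28 without RA, none well above background, and of 0.81, -0.19, -1.99 and -1.31 with RA, all well above it. Here too RA cultures 1 and 2 were higher than 3 and 4, and the level was at least 27.3-fold higher (limma adjusted p = 0.000168). Normexp gave a log2 change of 3.09, smaller than that bound. The fitted log2 change was 6.36 on all arrays, and 7.32 and 5.41 on slides 1 and 2. The summed markers of the RA response were lower on RA arrays 1 and 2 (6.82 and 6.97) than on 3 and 4 (7.83 and 7.65), as were those of primitive endoderm (4.82 and 4.51 against 5.25 and 5.15). The ES cell markers (6.15 and 6.90 against 5.58 and 5.51), the fibroblast markers (5.55 and 5.62 against 4.94 and 5.16) and the mesoderm markers (1.25 and 1.84 against 1.03 and 1.21) were higher there, the neural markers were not separated in this way, and the part of these differences was not tested.

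*Frzb*, a secreted frizzled-related antagonist, read -7.23, -7.53, -7.72 and -7.17 in untreated cells, none well above background, and -3.48, -2.88, -4.31 and -4.996 with RA, all well above it. The RA arrays were all higher, at least 2.88-fold (limma adjusted p = 0.000225), whereas normexp gave a log2 change of 0.76, smaller than that bound. *Dkk3*, a divergent Dkk protein, rose 3.38-fold, from a mean level of -0.20 ± 0.40 (SD, n = 4) to 1.56 ± 0.21 (limma adjusted p = 0.000292).

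*Sfrp4*, another secreted frizzled-related protein, had that fall. Its levels were 0.91, 1.04, -0.07 and 0.62 without RA and -5.96, -4.40, -5.83 and -6.48 with RA, where 1 array was still well above background. The conditions were far apart, and the level was 78.5-fold lower (log2 -6.30 ± 0.44, limma adjusted p = 1.40e-05). It was 65.3-fold lower with the dim RA arrays set to the lowest signal well above background, and the log2 change was -4.17 with normexp and -4.02 in the authors' values. *Dkk4* was called lower (limma adjusted p = 0.0131), but was well above background on 1 untreated array and on no RA array, so that no fold is given, and 4 of the 6 settings that ended its call used another normalization, background correction or the authors' values. *Sfrp1* (log2 -0.49), *Sfrp2* (-0.42), *Sfrp5* (0.37) and *Wif1* (-0.11) were not called.

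R-spondins and their receptors rose in 4 of 7 cases and fell in none. *Rspo3* had levels of -4.44, -4.85, -4.63 and -4.31 in untreated cells and of 1.36, 0.93, 1.31 and 1.91 with RA. Both conditions were tight and far apart, and the rise was 61.1-fold (log2 5.93 ± 0.23, limma adjusted p = 1.56e-06, log2 4.37 with normexp). *Lgr5*, an R-spondin receptor and itself a known target of canonical signaling, read -4.58, -6.18, -3.83 and -7.27 against -0.85, -0.72, -0.84 and -0.10. Only 2 untreated arrays were well above background, all RA arrays were higher, and the rise was 28.6-fold (log2 4.84 ± 0.67, limma adjusted p = 0.000531). It was 18.1-fold with the dim arrays set to the lowest signal well above background. The log2 change was 2.70 with normexp, 4.23 without untreated culture 4, and 3.73 and 5.95 on slides 1 and 2.

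*Rspo2* read -6.54, -4.62, -5.85 and -5.69 without RA, of which 1 was well above background, and -3.01, -3.51, -2.96 and -2.69 with RA. The arrays did not overlap, and the rise was 6.19-fold (log2 2.63 ± 0.38, limma adjusted p = 0.000641). It was 4.42-fold with the dim arrays set to the lowest signal well above background. The log2 change was 0.85 with normexp, and 3.35 and 1.92 on slides 1 and 2. *Rspo1* rose 2.90-fold (limma adjusted p = 0.00213) but was not called on either slide alone (adjusted p = 0.0556 and 0.0518). *Lgr4* (log2 0.12) and *Lgr6* (-0.19) were not called, nor was *Rspo4*, which was well above background on 1 untreated array and on no RA array.

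Of the 5 feedback inhibitors, *Nkd1* and *Axin2* rose. *Nkd1*, which binds Dishevelled, had levels of -1.17, -1.20, -1.36 and -1.19 without RA and of 1.84, 1.81, 1.09 and 1.69 with it. All RA arrays were higher, and the rise was 7.14-fold (log2 2.84 ± 0.19, limma adjusted p = 1.19e-05). *Axin2*, a scaffold of the β-catenin destruction complex and a widely used canonical target, rose 3.38-fold from a mean level of -4.83 ± 0.40 (SD, n = 4) to -3.08 ± 0.37 (limma adjusted p = 0.000661). It was well above background on 2 untreated arrays and on all RA arrays, and its further probe missed the threshold (limma adjusted p = 0.0529). Slide 2 alone did not give the call (adjusted p = 0.0536), and the log2 change was 0.67 with normexp. *Axin1*, the constitutive scaffold (log2 -0.02), *Nkd2* (-0.24) and *Apcdd1*, a membrane inhibitor (0.30), were not called.

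The TCF/LEF factors, which carry the signal to the DNA, were all well above background on the 8 arrays and none was called. Their log2 fold changes were 0.04 ± 0.32 (SE) for *Lef1*, -0.20 ± 0.16 for *Tcf7*, -0.38 ± 0.23 for *Tcf7l1* and -0.26 ± 0.16 for *Tcf7l2*. A further probe of *Tcf7l2*, not well above background on any untreated array and well above it on 3 RA arrays, was at least 1.83-fold higher (limma adjusted p = 0.0182). With the probes of a gene averaged, *Tcf7* gave 0.065 and *Tcf7l2* gave 0.71 on the log2 scale, the latter with a limma adjusted p of 0.0232 and so called higher.

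**Figure D3:**
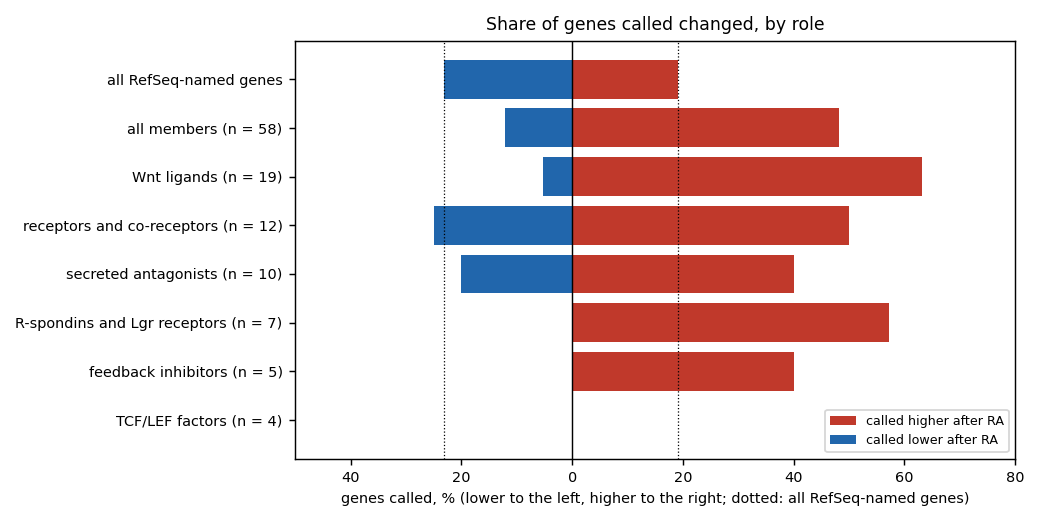
Percentage of genes called higher (to the right) or lower (to the left) with RA, by role, beside all 18913 RefSeq-named genes (19.1% higher and 23.1% lower, dotted lines). Of the ligands 63.2% were called higher and of the TCF/LEF factors none in either direction, with 19 and 4 genes in these bars.

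14 genes had more than 1 probe, which can differ in the transcript end they read. Of the 15 further probes 12 had the call of the brightest one, 3 had another call (*Fzd7*, *Axin2* and *Tcf7l2*) and 0 were called in the opposite direction. Of the 5 further probes of called genes 4 had the same call, those of *Fzd2*, *Fzd5*, *Wnt8b* and *Nkd1*. The further probe of *Fzd5* gave -1.94 (limma adjusted p = 2.29e-05), that of *Wnt8b*, well above background on 1 untreated array and no RA array, was at least 1.07-fold lower (limma adjusted p = 0.0257), and that of *Nkd1* gave 1.91 (limma adjusted p = 0.00763).

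**Figure D4:**
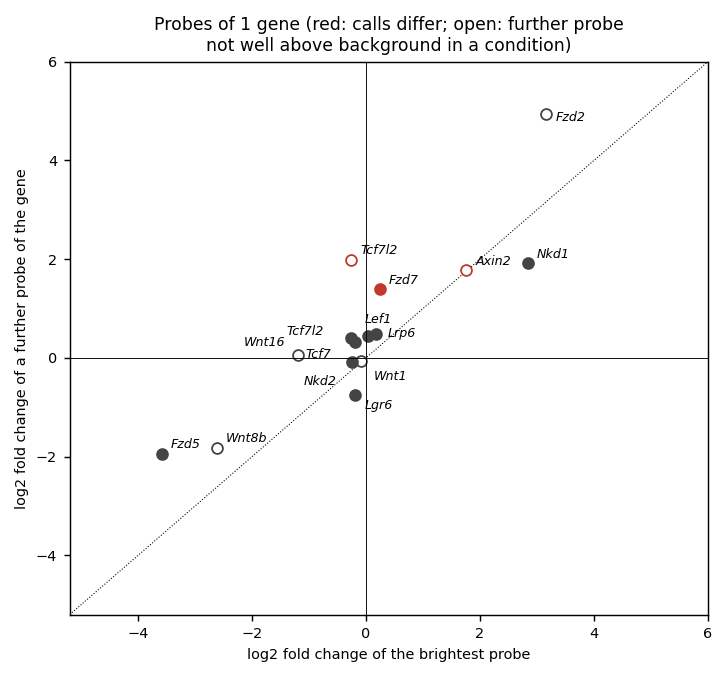
Log2 fold change of the 15 further probes (vertical axis) against that of the brightest probe of the same gene (horizontal axis), for 14 genes. Points on the dotted line would have equal changes. *Fzd7* at 1.39 against 0.24 and a *Tcf7l2* probe at 1.99 against -0.26 lie above it. Open symbols mark further probes that were not well above background on any array of a condition, where the value is not a size of change.

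Each condition had 2 arrays on each of the 2 slides, so the change could be taken within a slide. Of the 35 called genes 21 were well above background on all 8 arrays. All 21 had the same sign and were over 1.5-fold on both slides, with a median difference between the slides of 0.42 on the log2 scale. *Wnt10a* differed most among them, with 2.01 on slide 1 and 2.91 on slide 2. The genes were called on these same arrays, so this agreement is no separate support. Called genes dim on some arrays are not in these counts. Some of them differed more, such as *Lgr5* (3.73 and 5.95), and some less, such as *Axin2* (1.80 and 1.71).

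**Figure D5:**
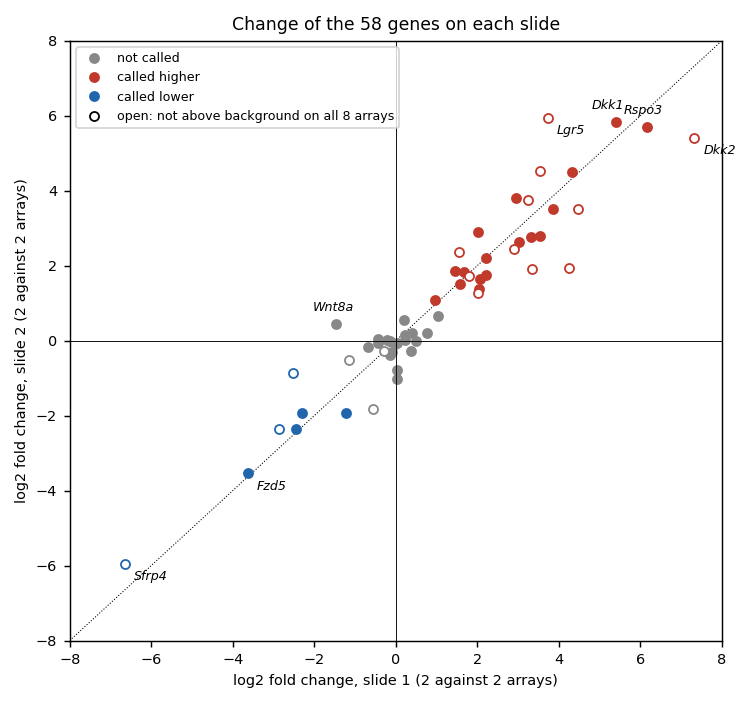
Log2 fold change on slide 2 (vertical axis) against slide 1 (horizontal axis) for the 58 genes, each from 2 RA and 2 untreated arrays. The called genes lie in the upper right and the lower left. Open symbols are genes not well above background on all 8 arrays, the filled symbols of called genes lie within 0.90 of the dotted line of equal change, and *Wnt8a*, not called, was -1.46 on slide 1 and 0.45 on slide 2.

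Of 4 close pairs of neighbouring Wnt genes 2 had both genes called higher, where 12 of all 19 ligands were called higher, so nothing is read from the pairs. *Wnt6* and *Wnt10a* on chromosome 1 both rose, as did *Wnt9b* and *Wnt3*, whose probes start 90.2 kb apart on chromosome 11. Of *Wnt10b* and *Wnt1*, and of *Wnt9a* and *Wnt3a*, the first was called higher and the other was not called.

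The rest of the pathway was read from 6 lists of other genes, of which 75 were measured (*Amer1* was not matched to a probe). Among them 36 rose, 9 fell and 30 were not called, with a median log2 fold change of 0.70. Over all RefSeq-named genes, as above, 19.1% were called higher and 23.1% lower with a median of -0.25, and the shares that fell in the lists of nuclear cofactors, planar polarity genes and direct targets below are near that share. Of 10 further receptors and ligand partners 8 rose and 0 fell, with the largest changes in *Gpc3*, a cell surface glypican (12.1-fold), *Rnf43*, a ubiquitin ligase that removes frizzleds (5.99-fold, log2 2.58, and 1.93 with normexp), and *Ror2*, a receptor of Wnt5a (4.42-fold). Of 8 secretion and extracellular genes 6 rose and 0 fell. *Wls*, the carrier that brings Wnt proteins to the cell surface, rose 29.3-fold (log2 4.87 ± 0.32, limma adjusted p = 1.17e-05), and *Igfbp4*, an extracellular inhibitor of the pathway, rose 45.4-fold (log2 5.51, and 4.23 with normexp). *Sost*, an antagonist at Lrp5 and Lrp6, was called higher with no untreated array above background and too dim for a bound, and it lost the call under 4 alternatives. *Porcn*, which acts on Wnt proteins before *Wls*, fell as given above.

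Of 19 cytoplasmic relay genes 6 rose and 0 fell, led by *Dact1*, a Dishevelled-binding protein (8.19-fold), *Btrc*, which marks β-catenin for destruction (2.60-fold), and *Gsk3b*, a kinase of the destruction complex (2.44-fold). Of 14 nuclear cofactors 6 rose and 3 fell. *Sox17* and *Sox7*, endoderm factors that bind β-catenin and are also in the primitive endoderm list, rose 8.27-fold and 4.44-fold, and *Pygo1*, a coactivator, was at least 2.42-fold higher. With normexp the log2 change of *Sox7* was 1.25, against 2.15 here, and that of *Pygo1* was 0.50, smaller than its bound and not called. Of 10 planar polarity genes 5 rose and 2 fell, with *Daam2* at least 19.5-fold and *Fat4* at least 10.1-fold higher and *Celsr3* changed by -2.91 on the log2 scale. Normexp gave log2 changes of 2.50 for *Daam2* and 2.05 for *Fat4*, smaller than these bounds. The fitted log2 change of *Fat4* was 5.27 on all arrays and 5.92 without RA culture 2. Of 14 known direct targets 5 rose and 4 fell. *Sp5* and *Tnfrsf19* rose 19.9-fold and 9.08-fold, whereas *Tbx3*, *Sall4*, *Cdx4* and *Mixl1* were called lower, the last 2 not well above background on any array. Each of these 4 lost its call under at least 1 alternative, *Mixl1* under 12, *Cdx4* and *Tbx3* under 3 each and *Sall4* under 1. *Tbx3* and *Sall4* are also known as genes of undifferentiated ES cells.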

How the data were processed

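RNA of 4 untreated and 4 RA-treated cultures was measured on 1 array each, and all arrays were kept. The authors deposited scanner output (Agilent Feature Extraction, version 10.7.3.1) in which each spot has an intensity corrected for background but not normalized between arrays, with flags for spots above background, saturated or outlying. A second deposited table holds log2 values, whose columns all have a median of 6.76 and rank the spots as normexp-corrected, quantile-normalized signals do. Positions are on mm9 per the file headers, and gene names are those of the array design.

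Processed intensities were put on the log2 scale in R 4.3.3, minus the 75th percentile over the 59305 non-control spots of the array. Control spots (3671) and outlier spots (124 to 145 per array) were dropped, repeated spots of 1 probe were replaced by their mean, and no spot was saturated. All 55681 probes entered limma 3.58.1 (lmFit and eBayes, Benjamini-Hochberg adjustment), and calls needed an adjusted p under 0.05 and a change over 1.5-fold, the limits in the study's methods. A gene that was not well above background on any array of a condition has only a bound, computed against the lowest signal well above background on each array. The bound holds on the scale used here, and other settings can give smaller changes. Promoter windows are from RefSeq (GRCm38.p6). A summed marker level is the log2 of the markers' summed signals.

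The members and lists were chosen with earlier results of these data known. Values on every array are given for called members with a log2 change of at least 2 and no overlap, and for members above background on all arrays of 1 condition and none of the other. *Wnt3*, *Porcn* and the pair of alike probes were included with their values in view. From each list the 3 called genes with the largest change are named, except 1 that is not reported here. Markers and further target genes named beyond this rule were chosen with their values known.

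The labels number the cultures 1 to 4 in both conditions. Deviations from the condition mean were compared over the 27491 probes above background on all arrays. They correlated at 0.186, 0.189, 0.104 and 0.151 between arrays of the same number, 1 to 4. Other arrays reached 0.142 (untreated 1 with RA 4) and 0.130 (untreated 4 with RA 3), both above the value for number 3. The arrays numbered 1, those numbered 2 and both of these other pairs each shared a slide. The correlations therefore do not settle whether the numbers pair the cultures. The values given are from the fit without the replicate block, and the blocked value is given where it changes a call. In simulated data for the comparison, with 200 of 55640 probes changed by 2 on the log2 scale, 144 were recovered and 4 unchanged probes called. Far more probes were called in the real data (12.9% higher and 21.6% lower), and the simulated noise had no slide or pairing effect. These counts therefore do not give the error rates of the real comparison. Alternatives were the scaling, background correction, the deposited log2 table, a filter on dim probes (32378 kept), the probe rule, the threshold, the replicate and slide blocks, single slides and leaving out each array.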

Additional observations from a re-analysis of the deposited data

Results flagged for a closer look

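In each condition the 4 arrays of a gene were examined for 1 that stood apart from the rest (Dixon's test). Of the 116 sets of 4 arrays, 9 had such an array, where chance gives 5.8 at 1 in 20. Untreated culture 3 stood apart for *Wnt5b* (-2.60, others -1.80 to -1.64), *Wnt9a* (-0.80, others -2.88 to -2.80), *Sfrp1* (-1.18, others 0.05 to 0.19), *Lgr6* (-3.00, others -4.22 to -4.04) and *Nkd1* (-1.36, others -1.20 to -1.17), all log2 levels relative to the array's 75th percentile. RA culture 4 stood apart for *Fzd5* (-3.34, others -2.96 to -2.89) and RA culture 2 for *Fzd10* (0.54, others -0.07 to -0.03). RA culture 3 stood apart for *Dkk3* (1.87, others 1.44 to 1.46) and *Tcf7l2* (-2.01, others -1.70 to -1.65). The calls of the genes named here did not change when the array in question was left out.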

How the results depend on the processing

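Of the 35 called genes 26 were called under every alternative and 9 lost the call under at least 1 (*Wnt2*, *Wnt2b*, *Wnt3*, *Wnt9b*, *Wnt10a*, *Fzd3*, *Dkk4*, *Rspo1* and *Axin2*), and 0 changed sign. *Wnt2*, *Wnt2b* and *Dkk4* were not tested with the filter on dim probes. Of the other pathway genes named, *Sost*, *Btrc*, *Pygo1*, *Tbx3*, *Sall4*, *Cdx4* and *Mixl1* lost theirs under at least 1. The cause was not tested. Across the alternatives 22 to 30 of the 58 genes were called higher and 6 to 8 lower. The replicate block gave 27 and 8, ending the call of *Wnt3* (1.66) and adding *Wnt16* (-1.19), and changed no other call among the 58 genes. Counting dim genes only where their bound was over 1.5-fold, chosen after seeing the data, gave 27 and 6. Leaving out 1 array gave 26 to 28 higher and 7 lower, and 35 to 37 and 7 to 9 of the other pathway genes. Of those the genes called lower, 9 in the main setting, were 5 with a test against 1.5-fold, 4 on slide 1 and 5 on slide 2. Of the 23 genes not called 12 changed sign at least once. Quantile normalization gave *Wif1* 0.128, *Lgr6* 0.0718 and *Axin1* 0.0884, normexp with quantile normalization 0.0981, 0.0167 and 0.0872 and *Wnt3a* 0.0334, and the authors' values 0.10, 0.02 and 0.0925 and *Wnt3a* 0.03. Slide 1 gave *Sfrp1* 0.0357, *Axin1* 0.0256 and *Tcf7l1* 0.0185, and slide 2 gave *Wnt8a* 0.451, *Fzd7* -0.0156, *Wif1* 0.0101, *Lgr6* 0.0466 and *Lef1* -0.289. Leaving out 1 array gave -0.176 to 0.0492 for *Wnt1*, -0.454 to 0.204 for *Wif1*, -0.309 to 0.0964 for *Lgr6*, -0.0757 to 0.0568 for *Axin1* and -0.136 to 0.342 for *Lef1*. The mean of a gene's probes gave *Tcf7* 0.065 and *Tcf7l2* 0.712, the latter called higher. *Wnt7b* was called higher with normexp and quantile normalization and in the authors' values (0.62 in both), and *Fzd7* with its probes averaged (0.82). The number of arrays limits the precision, and changes of genes below background in a condition are only bounded.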
